A study of Mus musculus with 18 samples.

Results

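The cold-inducible RNA-binding proteins of the mouse are encoded by Cirbp and Rbm3. These were the 2 genes described here, out of 34989 genes quantified, and they were taken by name. Cirbp (ENSMUSG00000045193.13) lies on chromosome 10 at 80165985-80172786 of GRCm38 on the plus strand, and Rbm3 (ENSMUSG00000031167.16) lies on chromosome X at 8138975-8145880 on the minus strand. The estimated counts of the 7 transcripts of Cirbp and of the 11 transcripts of Rbm3 were summed within each gene in each library.

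Both genes encode small proteins with 1 RNA-recognition motif followed by a glycine-rich tail. They are best known for rising when mammalian cells are cooled mildly below body temperature and for falling when cells are warmed, the mirror image of the heat-shock chaperones. In the cell they bind messenger RNAs and affect their stability, translation and splicing, and CIRBP released from injured cells is known as a danger signal that acts on innate immune receptors.

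The libraries came from hearts of C57B/L6 mice, labelled as 12 weeks old (the study's methods give a younger age and both sexes), stored for 0, 4 or 8 h and then perfused ex vivo. Every heart, the 0 h hearts included, was flushed with HTK (histidine-tryptophan-ketoglutarate, a cardioplegic preservation solution) and perfused for 1 h with Krebs buffer before the left ventricle (LV) and right ventricle (RV) were frozen. Storage was in ice-cold HTK, so the 0 h hearts controlled for excision, flush and perfusion, and every library was taken after rewarming. The 6 groups were LV and RV at 0, 4 and 8 h, with 3 libraries in each and 18 in all. Whole ventricular tissue was sequenced, so a change in the cells present and a change in RNA per cell cannot be told apart.

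The libraries held 22552581 to 46236771 estimated counts. Cirbp was read by 531 to 1674 counts in a library and Rbm3 by 1205 to 2597, which sets the counting error of 1 library at 1.96% to 4.34%, below the spread between replicates. All 6 cardiomyocyte markers were detected in every group. Their summed level was 50939 to 62092 CPM at 0 h and 35810 to 44284 at 8 h in the LV, and 53452 to 62048 and 23493 to 51134 in the RV (CPM are counts scaled to a common library size with factors from the trimmed mean of M values, TMM). The 8 h sums lay below those at 0 h in both ventricles, RV 8 h replicate 3 being the lowest. Transcripts of 4 Y-linked genes summed to 4.63 to 6.78 CPM in 1 library of every group and to 133 to 194 in the others. The low libraries were replicate 2 at 0 h and replicate 3 at 4 and 8 h, in both ventricles, so each comparison set 1 low library against 1 low library. Mitochondrially encoded transcripts took 24.1% to 28.3% of counts at 0 h, 24.9% to 26.4% at 4 h and 32.0% to 34.4% at 8 h in the LV. In the RV they took 22.7% to 32.6%, 26.1% to 27.7% and 33.3% to 34.2%, so the 8 h libraries were highest in both ventricles.

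Cirbp was lower after storage in both ventricles, and the largest difference was in the RV at 8 h, where its level was 0.54 times that at 0 h. In the LV at 0 h it measured 34.6, 31.4 and 40.7 CPM in replicates 1, 2 and 3. At 4 h the LV libraries measured 28.5, 22.1 and 27.3, and at 8 h 23.8, 21.8 and 29.6 CPM. All 6 stored LV libraries lay below all 3 LV libraries at 0 h, while the 4 h and 8 h libraries overlapped.

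In the RV at 0 h, Cirbp measured 43.6, 35.6 and 47.3 CPM. At 4 h it measured 33.8, 30.7 and 30.6, and at 8 h 21.9, 23.6 and 21.8 CPM. The 3 RV groups did not overlap, with the 8 h libraries lowest and close to each other. The group means were 42.2 ± 5.99, 31.7 ± 1.85 and 22.4 ± 1.03 (SD, n = 3) in the RV groups by rising storage time, against 35.5 ± 4.71, 26.0 ± 3.37 and 25.1 ± 4.06 in the LV.

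**Figure D1:**
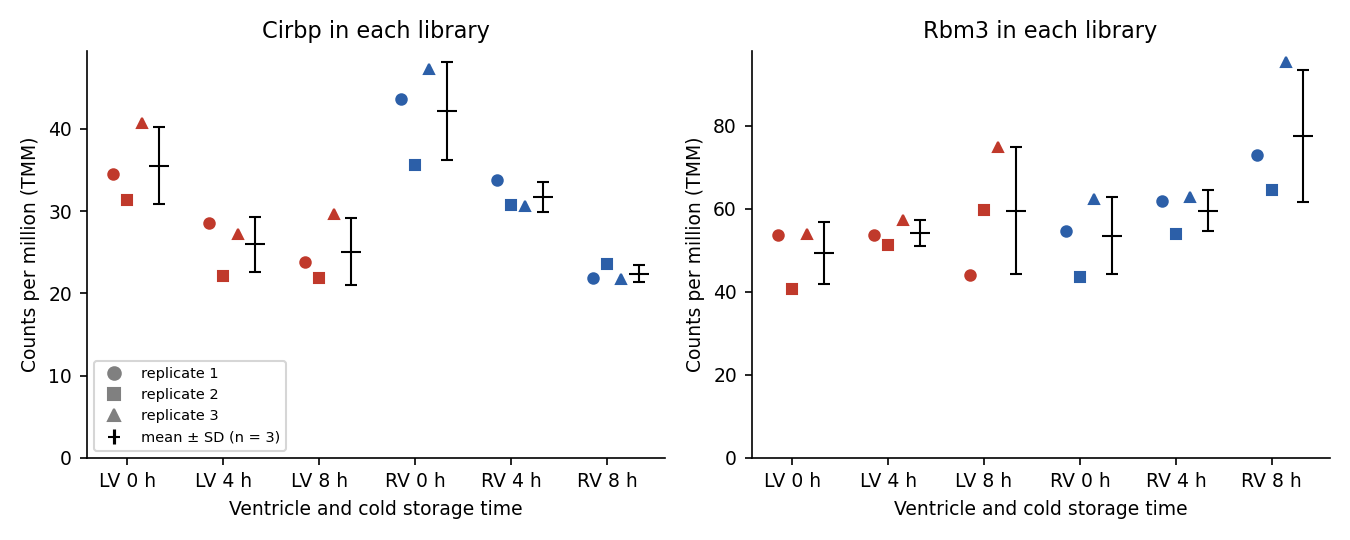
TMM-scaled CPM of Cirbp (left) and Rbm3 (right) in each of the 18 libraries, by ventricle and storage time; red is LV, blue is RV, the symbol gives the replicate number and the black bar is the mean ± SD of 3 libraries. The 6 stored libraries of each ventricle lie below its 0 h libraries for Cirbp, and the 3 RV 8 h libraries of Rbm3 lie above those at 0 h.

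A gene was called when edgeR's quasi-likelihood test gave a Benjamini-Hochberg adjusted p below 0.1 over all genes tested and the fold change was over 1.5, the limits the study used. In the RV at 8 h, Cirbp fell by 0.90 on the log2 scale (SE 0.14, edgeR adjusted p = 0.00545) and passed both limits. It was the 1 of the 2 members called in that comparison, in which 18.2% of 14622 genes were called and 5.26% were called lower. Its log2 fold change stayed between -1.01 and -0.81 when each of the 9 RV libraries was left out in turn, and it was called in each of those fits. Cardiomyocyte markers were lower in the same comparison, all 6 with a log2 fold change below 0 (median -0.43, each short of the limits), against medians of 0.45 for 5 fibroblast and 0.30 for 4 mural cell markers. Of the 6, 5 were below 0 in the LV at 8 h (median -0.25), and 1 was called lower, against 1.26% of all genes tested. With mitochondrial genes left out of the fit Cirbp was -0.90 (adjusted p = 0.00497) in the RV. The part of the cells present in the Cirbp values was not tested.

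The other decreases of Cirbp did not pass both limits in the main fit. In the LV the log2 fold change was -0.45 (SE 0.16, edgeR adjusted p = 0.213) at 4 h and -0.50 (SE 0.16, adjusted p = 0.114) at 8 h. In the RV at 4 h it was -0.39 (SE 0.14, adjusted p = 0.136). All 3 had an unadjusted edgeR p below 0.05, and a fold below the limit of 1.5. Under other edgeR or DESeq2 settings each had an adjusted p below 0.1 at least once. The largest fall at 4 h over those settings was -0.57 (LV) and -0.56 (RV) on the log2 scale, a fold still below 1.5. No member was called by the main edgeR fit or by DESeq2 in these 3 comparisons. That edgeR fit called 2.79% of 14564 genes (LV 4 h), 6.72% of 14564 (LV 8 h) and 10.1% of 14622 (RV 4 h).

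The LV value at 8 h depended on the libraries used. Without LV 8 h replicate 3 it was -0.65 (edgeR adjusted p = 0.0883) and was called, and without the low Y-linked library of each LV group, a fit chosen after the data were seen, it was -0.73 (adjusted p = 0.0798) and was called. That last fit gave -1.01 (adjusted p = 0.00801) in the RV at 8 h, again a called decrease. Cirbp was thus lower at 8 h in both ventricles in each of these fits, and only the RV value passed both limits in all of them.

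Rbm3 did not follow Cirbp. In the LV at 0 h it measured 53.6, 40.7 and 53.9 CPM. At 4 h it measured 53.6, 51.2 and 57.4, and at 8 h 44.1, 59.8 and 74.8 CPM. The LV groups overlapped, and the 8 h group held both the lowest stored value and the highest.

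In the RV at 0 h, Rbm3 measured 54.7, 43.7 and 62.3 CPM. At 4 h it measured 61.9, 53.9 and 62.9, and at 8 h 72.9, 64.5 and 95.3 CPM. The RV 8 h libraries lay above all RV libraries at 0 and 4 h, and replicate 3 at 8 h was the highest of all 18. The group means were 53.6 ± 9.38, 59.5 ± 4.93 and 77.6 ± 15.9 (SD, n = 3) in the RV and 49.4 ± 7.54, 54.1 ± 3.13 and 59.6 ± 15.3 in the LV.

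The log2 fold change of Rbm3 in the RV at 8 h was 0.55 (SE 0.20, edgeR adjusted p = 0.104), past neither limit. With the replicate number as a block it was 0.55 (edgeR adjusted p = 0.0289), with the fold still below 1.5. That number does not stand for 1 heart across storage times. Rbm3 was called under relative log expression (RLE) size factors, at 0.59 (adjusted p = 0.0891), and without RV 8 h replicate 2, at 0.67 (adjusted p = 0.0507). The other log2 fold changes against 0 h were 0.13 (LV 4 h), 0.27 (LV 8 h) and 0.17 (RV 4 h), with edgeR adjusted p-values of 0.813, 0.411 and 0.752.

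Rbm3 is X-linked, and the low Y-linked libraries stood at an end of their group, in a direction that differed between storage times. These had the lowest Rbm3 level of their group at 0 h (40.7 in the LV, 43.7 in the RV). They had the highest at 4 h (57.4 and 62.9) and at 8 h (74.8 and 95.3 CPM). Without them the log2 fold change was 0.22 (edgeR adjusted p = 0.541) in the RV at 8 h and -0.06 (adjusted p = 0.920) in the LV at 8 h. Leaving out RV 8 h replicate 3 alone gave 0.36 (adjusted p = 0.228) in the RV. The part of the animals' sex in these values was not tested.

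**Figure D2:**
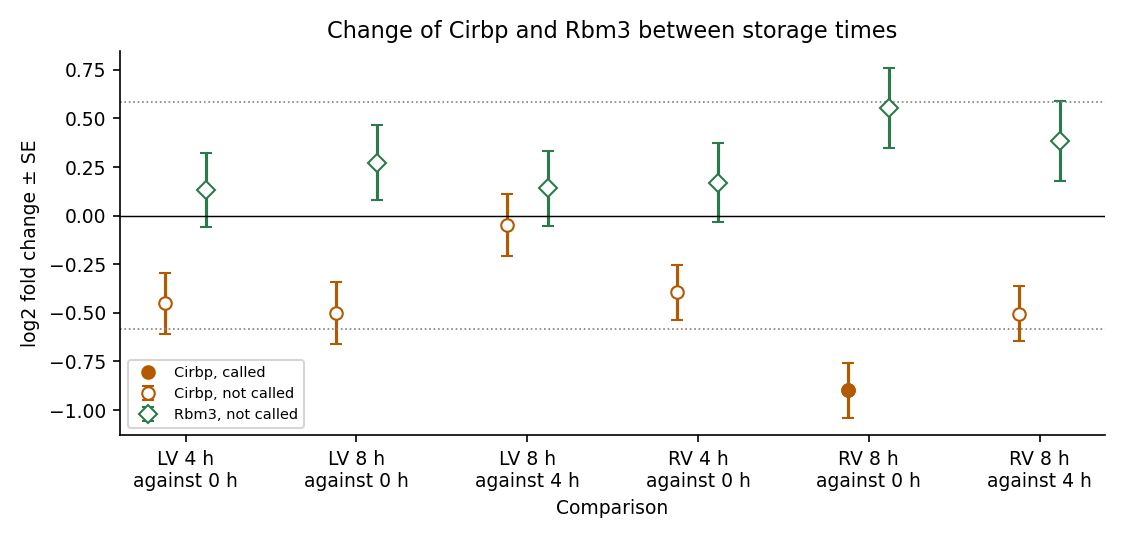
Log2 fold change ± SE from edgeR for Cirbp (circles) and Rbm3 (diamonds) in the 6 comparisons between storage times; filled symbols passed both limits and dotted lines mark a fold of 1.5. Cirbp in the RV at 8 h against 0 h, at -0.90, is the 1 filled symbol.

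Between 4 and 8 h, Cirbp differed by -0.05 (SE 0.16, edgeR adjusted p = 0.929) in the LV and by -0.50 (SE 0.14, adjusted p = 0.599) in the RV. The RV value had an unadjusted edgeR p of 0.00550. Rbm3 differed by 0.14 (SE 0.19) in the LV and by 0.38 (SE 0.20) in the RV, with adjusted p-values of 0.833 and 0.599. No gene of the whole table was called by edgeR in either comparison, 0% in each. At an unadjusted p below 0.05 there were 1180 genes in the LV and 961 in the RV, and DESeq2 called 71 and 43 genes, neither member among them.

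The scale mattered for these values. TMM scaling sets the bulk of genes to no change, and with total counts alone the median log2 fold change of all genes moved from -0.02 to -0.17 in the LV at 8 h and from -0.07 to -0.30 in the RV at 8 h. On total counts Cirbp was -0.66 (edgeR adjusted p = 0.0427, called) in the LV and -1.13 in the RV at 8 h. Rbm3 was 0.11 and 0.32 in the same fits, closer to 0 than under TMM.

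Levels of the 2 genes were compared with each other in TPM, the deposited scale, which corrects for transcript length and library size but not for the shift of all genes. At 0 h Cirbp was near Rbm3: the ratio of Cirbp to Rbm3 TPM was 0.751 to 0.976 in the LV and 0.917 to 1.04 in the RV. After 8 h it was 0.413 to 0.687 in the LV and 0.308 to 0.441 in the RV. In both ventricles all 6 stored libraries lay below the 3 at 0 h.

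Most of that shift was in Cirbp. Its summed TPM was 48.3 to 53.0 in the LV and 56.5 to 66.3 in the RV at 0 h, and 24.0 to 31.7 and 23.9 to 27.1 at 8 h. Rbm3 TPM overlapped between all storage times, at 50.1 to 64.3 (LV 0 h), 44.2 to 66.4 (LV 8 h), 54.3 to 69.2 (RV 0 h) and 61.4 to 77.7 (RV 8 h). In the LV at 8 h the mean Rbm3 level was below that at 0 h in TPM (56.2 against 58.4) and above it in TMM-scaled CPM (59.6 against 49.4), so no direction is given for Rbm3 there.

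**Figure D3:**
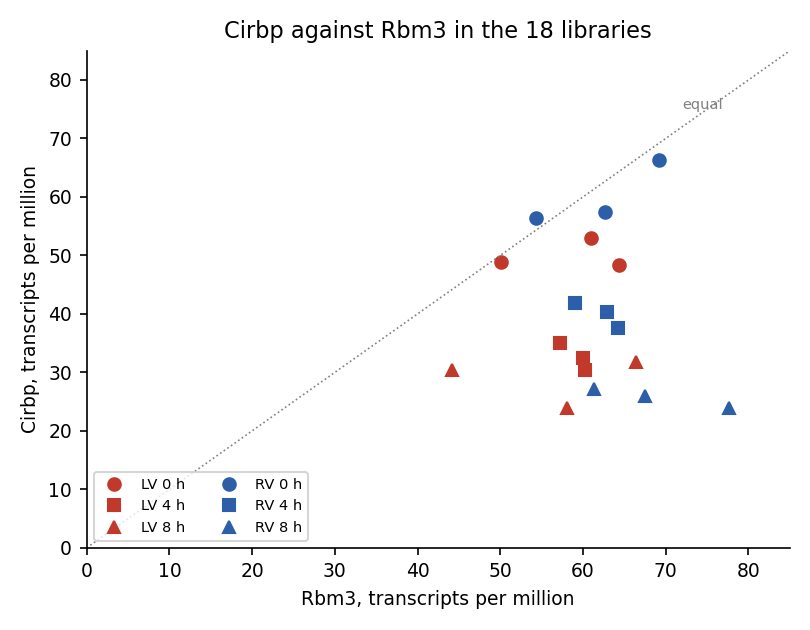
Summed TPM of Cirbp (vertical) against summed TPM of Rbm3 (horizontal) in the 18 libraries; red is LV, blue is RV, circles are 0 h, squares 4 h and triangles 8 h, and the dotted line marks equal levels. The 0 h libraries lie near the line and the 8 h libraries well below it, with Cirbp at 23.9 to 31.7 TPM.

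Ordered by mean Cirbp in CPM, the groups ran RV 0 h (42.2), LV 0 h (35.5), RV 4 h (31.7), LV 4 h (26.0), LV 8 h (25.1) and RV 8 h (22.4). Neighbours in that order overlapped in their libraries, except that RV 4 h lay above LV 4 h. For Rbm3 the order was RV 8 h (77.6), LV 8 h (59.6), RV 4 h (59.5), LV 4 h (54.1), RV 0 h (53.6) and LV 0 h (49.4), and all neighbours overlapped.

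In TMM-scaled CPM, Rbm3 was higher in the RV than in the LV library of the same number in 9 of 9 pairs. Cirbp was so in 6 of 6 pairs at 0 and 4 h and in 1 of 3 at 8 h. In TPM the Rbm3 pair of replicate 2 at 4 h went the other way, at 59.0 in the RV and 60.2 in the LV. Such pairs were not counted for other genes. No difference between the ventricles was called for either gene, with or without the number as a block. For Cirbp the LV minus RV log2 difference was -0.25 (SE 0.14) at 0 h, -0.29 (SE 0.15) at 4 h and 0.16 (SE 0.15) at 8 h. For Rbm3 it was -0.12 (SE 0.20), -0.14 (SE 0.20) and -0.38 (SE 0.20). The edgeR adjusted p-values ran from 0.482 to 1, neither member had an unadjusted p below 0.05, and DESeq2 called neither. Of 15093 genes, 0.159%, 0.0133% and 0.0331% were called at 0, 4 and 8 h.

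The change from 0 to 8 h in Cirbp differed between LV and RV by 0.41 on the log2 scale (SE 0.21, edgeR adjusted p = 1.00), the fall being larger in the RV. For Rbm3 the difference was -0.27 (SE 0.28, adjusted p = 1.00). At 4 h these differences were -0.04 and -0.02. Neither member was called by edgeR or DESeq2 or had an unadjusted p below 0.05 in these 2 comparisons, in which edgeR called 0% of 15093 genes. At an unadjusted edgeR p below 0.05 there were 158 genes at 4 h and 628 at 8 h, and DESeq2 called 0 and 2 genes.

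LV and RV libraries with the same number deviated together, and with each number of a storage time as a block more genes were called. In that fit 8.78% of genes were called between the ventricles at 8 h and 5.71% in the difference of the change from 0 to 8 h. Cirbp was 0.40 in the latter (SE 0.14, edgeR adjusted p = 0.108) and was not called. Rbm3 was -0.40 in LV against RV at 8 h (SE 0.10, adjusted p = 0.0148), with a fold under 1.5. The blocked values of Cirbp were -0.25 (SE 0.09, adjusted p = 0.247) at 0 h and -0.29 (SE 0.10, adjusted p = 0.143) at 4 h.

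Both genes are annotated with several transcripts, and 4 of Cirbp and 3 of Rbm3 made up at least 5% of their gene's TPM on average. Cirbp-202, the main coding transcript, and Cirbp-201, annotated as a target of nonsense-mediated decay, share exon 6 and part at exon 7, which differs. The sequences below run 5′ to 3′ on the plus strand from the last 30 bases of exon 6, ending at chr10:80170764, to the stop codon, with the bases of exon 7 in capitals. They are shown because the 2 transcripts part here and the level of each is given below.
Cirbp-202: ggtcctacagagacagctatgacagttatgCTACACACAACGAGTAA
Cirbp-201: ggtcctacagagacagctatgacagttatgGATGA
Exon 7 starts at chr10:80170982 in Cirbp-202 and adds 17 bases up to and with its stop codon. In Cirbp-201 it starts downstream at chr10:80172414 and adds 5 bases, so the 2 reading frames end differently.

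Rbm3-203 and Rbm3-202 differ in their coding part at the start of exon 6, which lies at chrX:8143332 in the first and at chrX:8143329 in the second. The sequences run 5′ to 3′ on the minus strand from the last 30 bases of exon 5 to the stop codon at chrX:8143272-8143274, and capitals mark the 3 bases found in Rbm3-203 alone. They are shown because these 2 transcripts carried most of the Rbm3 signal.
Rbm3-203: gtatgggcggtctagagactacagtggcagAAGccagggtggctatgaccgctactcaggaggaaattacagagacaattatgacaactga
Rbm3-202: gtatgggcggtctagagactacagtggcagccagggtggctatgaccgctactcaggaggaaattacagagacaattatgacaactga
The insertion of 3 bases keeps the reading frame, and both transcripts use the same stop codon.

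The coding transcript Cirbp-202 was lower at 8 h in both ventricles, while the fold changes of Cirbp-201 were closer to 0, a difference between the transcripts that was not tested. In TPM, Cirbp-202 was 27.4, 23.5 and 30.4 in the LV at 0 h and 13.7, 13.8 and 16.95 at 8 h. In the RV it was 33.7, 26.6 and 30.5 at 0 h and 10.7, 13.5 and 11.4 at 8 h. The 8 h libraries of each ventricle lay below those at 0 h.

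A transcript-level edgeR fit gave Cirbp-202 a log2 fold change of -1.01 (SE 0.18, adjusted p = 0.0361, called) in the RV at 8 h and -0.57 (SE 0.20, adjusted p = 0.304) in the LV. Of all transcripts tested, 4.56% of 39265 in the RV and 0.427% of 39103 in the LV were called. The RV call was lost without RV 0 h replicate 3, at -0.90 (adjusted p = 0.139), and without RV 8 h replicate 1, at -0.93 (adjusted p = 0.114). Cirbp-201 had log2 fold changes of -0.18 (SE 0.24, adjusted p = 0.766) in the RV and 0.27 (SE 0.27, adjusted p = 0.722) in the LV. Its TPM was 5.55 to 7.37 (LV 0 h), 4.94 to 7.17 (LV 8 h), 8.27 to 9.98 (RV 0 h) and 5.10 to 7.18 (RV 8 h). In TPM the RV libraries at 8 h thus lay below those at 0 h for Cirbp-201 too, while the LV libraries overlapped.

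As a share of Cirbp TPM, Cirbp-201 was 15.3%, 11.4% and 12.8% in the LV at 0 h. It was 17.8%, 30.6% and 18.8% at 4 h and 23.2%, 20.6% and 22.6% at 8 h. All 6 stored LV libraries lay above the 3 at 0 h, with LV 4 h replicate 2 the highest. The mean share was 22.3% ± 4.59 (SD, n = 6) after storage and 13.1% ± 1.97 (n = 3) at 0 h, a difference of 9.13 percentage points (two-sided exact permutation p = 0.0238, adjusted p = 0.333 over 14 shares). This is the smallest p that 6 libraries against 3 can give, and with 14 shares tested it could not pass 0.1 on its own.

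In the RV the Cirbp-201 share was 15.04%, 16.6% and 14.4% at 0 h. It was 16.4%, 14.0% and 19.2% at 4 h and 26.4%, 26.5% and 21.3% at 8 h. The 8 h libraries lay above the others, while 4 h and 0 h overlapped. Stored against 0 h the difference was 5.29 points (two-sided exact permutation p = 0.167, adjusted p = 0.458).

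The other Cirbp transcripts tested are annotated as retained introns. Cirbp-204 took 13.8% ± 3.01 of Cirbp TPM in the LV at 0 h (SD, n = 3) and 7.51% ± 3.37 after storage (n = 6), a difference of -6.31 points (two-sided exact permutation p = 0.0476, adjusted p = 0.333). In the RV the difference was -3.47 points (exact permutation p = 0.333). Its level in the RV at 8 h was -1.54 on the log2 scale (SE 0.65, edgeR adjusted p = 0.287). With the replicate number, which is not 1 heart across storage times, as a block it was -1.80 (edgeR adjusted p = 0.0828, called). That fit called 5.98% of transcripts. Cirbp-205, which lies at chr10:80171982-80172698 and overlaps the last exon of Cirbp-201, differed by -3.51 points in the LV and -0.97 points in the RV (exact permutation p = 0.214 and 0.762).

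With 4 and 8 h pooled, the share of Cirbp-202 itself moved little, by 1.19 points in the LV and -0.73 points in the RV. The two-sided exact permutation p-values were 0.738 and 0.976. By storage time the share averaged 54.0%, 58.3% and 52.1% in the LV at 0, 4 and 8 h, and 50.3%, 52.8% and 46.2% in the RV. It was 41.1% to 60.8% over the 18 libraries. These shares are kallisto estimates from reads that several transcripts share.

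**Figure D4:**
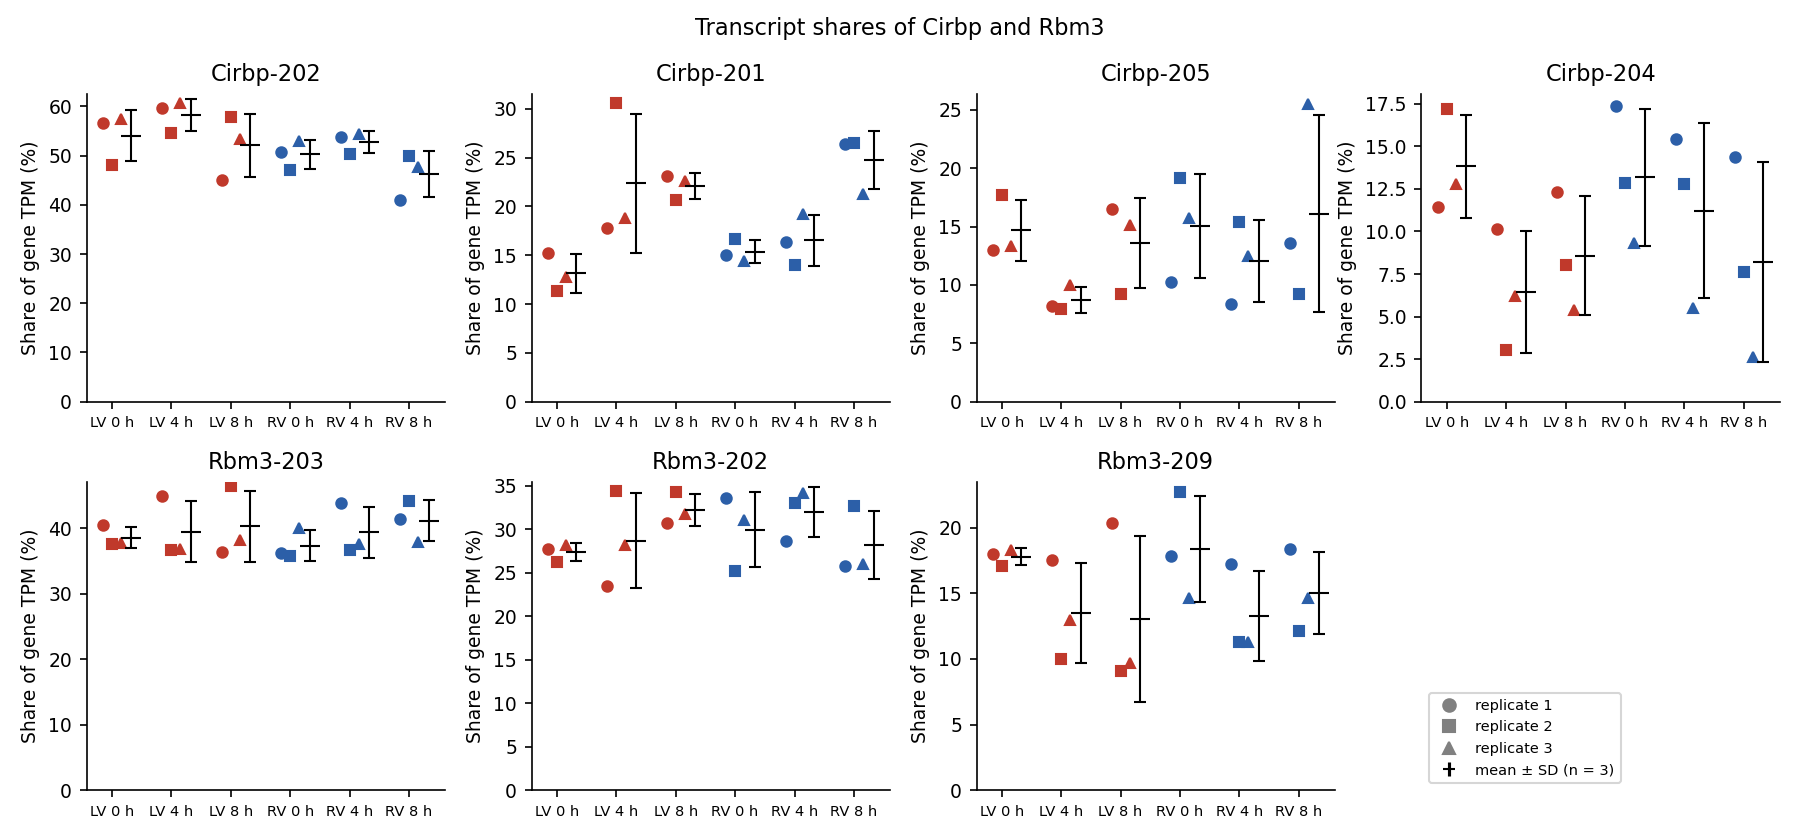
Share of the gene's TPM (percent) for the 4 Cirbp and 3 Rbm3 transcripts with a mean share of at least 5%, in each library by ventricle and storage time; red is LV, blue is RV, the symbol gives the replicate number and the black bar is the mean ± SD of 3 libraries. Cirbp-201 was 11.4% to 16.6% at 0 h and 20.6% to 26.5% at 8 h over both ventricles.

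For Rbm3, shares of the coding transcripts differed by no more than 3.03 points between stored and 0 h libraries. Rbm3-203 took 35.8% to 46.5% and Rbm3-202 took 23.5% to 34.4% of Rbm3 TPM over the 18 libraries. Rbm3-209, annotated as a retained intron, differed by -4.52 points in the LV and -4.24 points in the RV (two-sided exact permutation p = 0.190 and 0.143). At the transcript level the log2 fold change of Rbm3-203 in the RV at 8 h was 0.61 (SE 0.21, edgeR adjusted p = 0.191). A pair of loci bear on these counts. Rbm3os, an antisense gene not analysed here, overlaps 452 bases of the Rbm3 gene, and reads were quantified with kallisto's default setting, which does not use strand. The pseudogene Rbm3-ps stayed below 0.1 CPM.

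The genes whose log2 level over the 18 libraries was most like that of Cirbp, among 8115 genes with a mean of at least 10 CPM, were Inpp5k (Pearson r = 0.88), Ybx2 (0.88), Carns1 (0.87), Flcn (0.87) and Selenoo (0.86). Inpp5k encodes a phosphoinositide phosphatase, Ybx2 a Y-box RNA-binding protein, Carns1 the carnosine synthase and Flcn folliculin. Their log2 fold changes at 8 h were -0.38 to -0.61 in the LV and -0.58 to -0.93 in the RV. The genes most like Rbm3 were Snu13 (0.88), Fam133b (0.88), Med7 (0.86), Papss2 (0.86) and Rbms1 (0.86), which encode, among others, a spliceosomal small ribonucleoprotein subunit and a Mediator subunit. Between Cirbp and Rbm3 r was -0.29. The libraries share storage times and may share hearts, so these values are a description.

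The other genes of the temperature response were taken from lists of 58 genes, of which 52 passed the filter on low counts. At 4 h 3 were called in the LV, all higher, and 9 higher and 1 lower in the RV. At 8 h 6 were called higher and 1 lower in the LV, and 18 higher and 2 lower in the RV. Over all genes tested, 2.4% were called higher and 0.398% lower in the LV at 4 h, and 6.17% and 3.91% in the RV. At 8 h these were 5.46% and 1.26% in the LV and 13% and 5.26% in the RV. The list had a median log2 fold change of 0.11, 0.09, 0.24 and 0.27 in LV 4 h, LV 8 h, RV 4 h and RV 8 h, against -0.00, -0.02, 0.00 and -0.07 over all genes tested. With each library left out in turn, the number called ran from 0 to 9 (LV 4 h), 0 to 12 (LV 8 h), 2 to 16 (RV 4 h) and 14 to 21 (RV 8 h).

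The heat-shock chaperones, which refold proteins and are switched on by warming, carried the largest increases. In the RV at 8 h 7 of 8 were called higher, and in the LV 4 of 8, against 13% and 5.46% of all genes tested. All 4 LV calls were lost without LV 0 h replicate 2, LV 0 h replicate 3 or LV 8 h replicate 3, and that of Hspa1a also without LV 4 h replicate 1 or 2. Hspa1a, an inducible HSP70 gene, measured 123, 96.6 and 33.1 CPM in the RV at 0 h and 923, 895 and 2845 at 8 h. The 8 h libraries lay above all those at 0 h, and replicate 3 was again the highest. Its log2 fold change was 4.24 (SE 0.64, edgeR adjusted p = 0.00467) in the RV and 2.78 (SE 0.77, adjusted p = 0.0815) in the LV. Hspa1a and Hspa1b are near-identical copies whose reads may be split between them. Hspa1b rose by 4.57 and Dnajb1, an HSP40 cochaperone, by 3.14 in the RV at 8 h, both called.

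Of 16 splicing regulators that respond to temperature, 5 were called higher in the RV at 8 h, against 13% of all genes tested. These were Tra2a, Srsf7, Tra2b, Srsf3 and Hnrnph1. In the LV 11 of 16 lay above 0 and each fell short of the limits, and the difference between the ventricles was not tested for the list. Without RV 0 h replicate 2 or 3 the calls of Tra2a and Srsf3 were lost, and without RV 0 h replicate 1 that of Tra2a. Tra2b, a splicing activator, measured 52.5, 39.5 and 40.2 CPM in the RV at 0 h, 96.1, 76.3 and 89.7 at 4 h and 97.4, 85.5 and 143 at 8 h. Stored libraries lay above 0 h libraries throughout. Its log2 fold change in the RV was 1.00 (SE 0.24, edgeR adjusted p = 0.0405) at 4 h and 1.32 (SE 0.24, adjusted p = 0.00878) at 8 h. The 4 h call was lost without RV 0 h replicate 2 or 3 or RV 4 h replicate 1. In the LV at 8 h the values were 0.64 for Tra2b, 0.54 for Srsf7 and 1.04 for Tra2a, with adjusted p-values of 0.206 to 0.234. They rested on LV 8 h replicate 3, where Tra2a was 152 CPM against 43.1 and 52.2 in the other libraries, and without it they were 0.21, 0.17 and 0.24. Tra2a in the RV at 8 h was likewise 61.4, 60.2 and 213 CPM, and 0.74 on the log2 scale (adjusted p = 0.0837) without replicate 3, against 1.64 with it.

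Among proteins with a cold-shock domain, an RNA-binding fold unrelated to that of Cirbp and Rbm3, 1 of 6 was called at 8 h in each ventricle. Over all genes tested, 6.72% were called in the LV at 8 h and 18.2% in the RV. The protein called was Carhsp1, which rose by 1.32 (SE 0.28, edgeR adjusted p = 0.0390) in the LV and 1.94 (SE 0.39, adjusted p = 0.0141) in the RV. The LV call was lost without LV 0 h replicate 2 or 3. Its levels were 21.4 to 25.7 and 43.7 to 89.7 CPM in the LV at 0 and 8 h, and 19.6 to 23.2 and 48.2 to 133 in the RV. Of 3 RBMX relatives tested, which share the RNA-recognition motif family of the 2 genes, Rbmxl1 alone was called at 8 h in the RV. It rose by 0.78 (SE 0.19, edgeR adjusted p = 0.0277), and the call was lost without RV 0 h replicate 2 or 3.

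Trpv4 is an ion channel that senses warmth and osmotic stretch, one of the channels linked to the regulation of Cirbp and Rbm3. It was called higher in all 4 comparisons with 0 h. The other 7 of 8 regulators and modifying enzymes tested were not called in any of them. The list medians were 0.06 (LV 4 h), -0.06 (LV 8 h), 0.04 (RV 4 h) and 0.05 (RV 8 h). Over all genes tested, 2.4%, 5.46%, 6.17% and 13% were called higher in the same order. Trpv4 measured 6.22, 7.12 and 7.37 CPM in the LV at 0 h and 10.7, 13.1 and 24.4 at 8 h. In the RV it measured 5.91, 5.62 and 7.90 at 0 h and 14.3, 13.2 and 31.0 at 8 h. Every 8 h library lay above every 0 h library of its ventricle. The log2 fold changes at 8 h were 1.22 (SE 0.29, edgeR adjusted p = 0.0527) in the LV and 1.62 (SE 0.34, adjusted p = 0.0162) in the RV. The RV call at 8 h held with any 1 of the 9 libraries left out. The LV call at 8 h was lost without any 1 of the LV 0 h libraries. At 4 h the LV call was lost without any 1 of the LV 0 h or LV 4 h libraries or LV 8 h replicate 2, and the RV call without any 1 of the RV 0 h libraries or RV 4 h replicate 2 or 3.

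Of 8 messages and partners tied to the 2 proteins, 1 was called higher and 2 lower in the RV at 8 h, and 1 lower in the LV. Over all genes tested, 13% were called higher and 5.26% lower in the RV, and 1.26% lower in the LV. In each ventricle 2 of the 8 lay above 0 at 8 h. Cdkn1b, which encodes the cell cycle inhibitor p27, fell by 0.83 (SE 0.17, edgeR adjusted p = 0.0139) in the RV at 8 h and was -0.58 (adjusted p = 0.0788) in the LV, with a fold under 1.5. Dyrk1b, a kinase known to be held back by CIRBP, fell by 0.63 (SE 0.16, adjusted p = 0.0619) in the LV and by 0.80 (SE 0.25, adjusted p = 0.0663) in the RV at 8 h. Txn1, thioredoxin, whose message CIRBP binds, rose by 0.98 (SE 0.31, adjusted p = 0.0665) in the RV. The Dyrk1b call was lost without replicate 2 or 3 at 0 h or replicate 1 or 3 at 8 h, in the LV and in the RV alike. The Txn1 call was lost without any 1 of the RV 0 h libraries or RV 8 h replicate 3.

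Of the receptors of extracellular CIRBP, Tlr4 was called higher in the RV. It measured 9.41, 9.11 and 7.41 CPM there at 0 h, 18.04, 16.2 and 15.6 at 4 h and 16.4, 15.1 and 14.8 at 8 h. The stored RV libraries lay above all RV libraries at 0 h. In the LV, Tlr4 measured 12.5 to 16.2 CPM at 0 h, 14.1 to 20.9 at 4 h and 13.2 to 15.6 at 8 h. At 0 h the RV libraries lay below the LV libraries, while at 4 h and at 8 h the ventricles overlapped. The log2 fold change of Tlr4 in the RV was 0.96 (SE 0.14, edgeR adjusted p = 0.00927) at 4 h and 0.85 (SE 0.14, adjusted p = 0.00718) at 8 h. In the LV it was 0.37 (SE 0.17, adjusted p = 0.335) at 4 h and 0.07 (SE 0.17, adjusted p = 0.824) at 8 h. Il6ra, the interleukin-6 receptor, was called at 8 h in the RV, at 0.82 (SE 0.25, adjusted p = 0.0583), a call lost without any 1 of the RV 0 h libraries or RV 8 h replicate 1 or 3. Of 5 leukocyte markers tested, 2 were called higher in the RV at 8 h, where 13% of all genes tested were. In each of LV 4 h, LV 8 h and RV 4 h, 1 of the 5 markers was called higher, against 2.4%, 5.46% and 6.17% of all genes tested. The summed level of that list of 6 was 157 to 276 CPM at 0 h and 170 to 342 at 8 h in the RV, with no marker at 0 in either group. The part of these cells in the Tlr4 and Il6ra values was not tested.

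**Figure D5:**
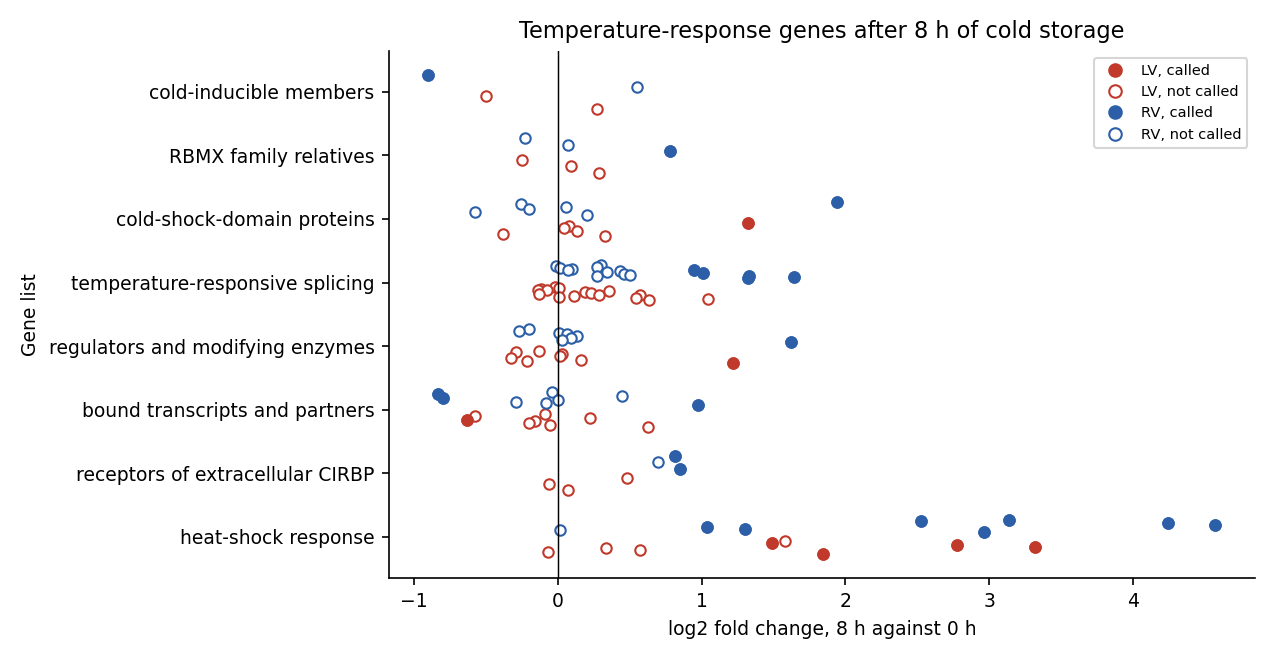
Log2 fold change at 8 h against 0 h (horizontal) of each tested gene of the temperature-response lists (vertical); red is LV, blue is RV, and filled points passed both limits. Heat-shock genes reach 4.57 in the RV, while Cirbp, at -0.90 in the RV, is the lowest filled point.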

How the data were processed

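Total RNA from LV and RV tissue of perfused hearts was made into libraries with a directional kit and mRNA selection. The authors quantified reads with kallisto at default parameters against GRCm38 and deposited estimated counts and TPM for each transcript of each library. Transcripts were matched to GENCODE vM21 (110203 of 111462, 34989 genes), and estimated counts were summed by gene and rounded. Genes passing edgeR's filterByExpr were fitted with edgeR 4.0.16 (R 4.3.3), TMM and a quasi-likelihood test on the 9 libraries of a ventricle, or on all 18 for comparisons between ventricles. DESeq2 1.42.0, with or without length offsets, was an alternative. Fits were tested on simulated data. Transcript shares from the deposited TPM were compared by two-sided exact permutation tests (scipy 1.17.1). No pair of libraries held identical values.

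The members and lists were chosen with earlier results of these data known. Named were the 2 members, up to 3 called genes per list with the largest change at 8 h, the 5 genes most like each member, and transcripts with a mean share of at least 5%. Srsf3 and Hnrnph1 were named after their values were seen. Gene levels are TMM-scaled CPM from 18 libraries.

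The labels do not state that libraries are from separate hearts, so p-values measure the spread between these libraries. The number was assumed to be 1 heart within a storage time. Deviations from group means of same-numbered LV and RV libraries correlated at 0.33 to 0.70. Against 0 h they correlated at 0.11 to 0.28 in the RV and at -0.02 to 0.26 in the LV, and between 4 and 8 h at 0.33 to 0.49 in the RV and 0.36 to 0.57 in the LV. By a limit of 0.1, deviations of same-numbered RV libraries went together across all times. Those of LV libraries did so between 4 and 8 h but not against 0 h. In the study's methods each heart had 1 storage time, and the low Y-linked library is replicate 2 at 0 h and replicate 3 later. Across times the number is therefore not 1 heart, and libraries with different numbers were not compared. Libraries at 4 and 8 h, from different hearts, correlated at 0.33 to 0.57. The correlations therefore cannot show that LV and RV libraries share a heart.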

Additional observations from a re-analysis of the deposited data

How the results depend on the processing

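For Cirbp and Rbm3, all but 9 of 210 values under other settings and 272 of 288 with 1 library left out kept their direction and their call, which takes both limits together. Only Cirbp in the RV at 8 h was called in the main fits, so for the other results a kept call means staying uncalled. The replicate block changed no call of either gene, Cirbp in the RV at 8 h being -0.89 (edgeR adjusted p = 0.00507). Added after the data were seen were total counts, the fits without low Y-linked libraries and further fits of the list.

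Cirbp in the LV at 8 h was called on total counts (-0.66) and without low Y-linked libraries (-0.73). The latter also gave Rbm3 -0.029 (LV 4 h), -0.060 (LV 8 h), -0.031 (LV 8 h against 4 h) and -0.0057 (RV 4 h), against values above 0 in all libraries. Rbm3 in the RV at 8 h was called under RLE (0.59). Cirbp in LV 8 h against 4 h was 0.0079 by DESeq2 with length offsets, and the LV minus RV change of Rbm3 at 4 h was 0.013 on total counts. The cause was not tested.

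With each library left out, Cirbp in the LV ran from -0.65 to -0.37 (8 h) and from -0.19 to 0.089 (8 h against 4 h). Rbm3 ran from -0.062 to 0.32 (LV 8 h against 4 h), from 0.36 to 0.67 (RV 8 h) and from -0.24 to 0.015 (LV against RV at 0 h). The LV minus RV change at 4 h ran from -0.16 to 0.095 for Rbm3 and from -0.14 to 0.057 for Cirbp. The RV 8 h fold of Cirbp-202 ran from -1.14 to -0.90.

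The temperature list in the LV at 4 h had 3 genes called, but 5 with the replicate block, whose numbers are not hearts across storage times. It had 1 under RLE, 7 by DESeq2 with or without length offsets, 6 without the count filter and 6 in 1 fit of 18 libraries. At 8 h the LV count of 7 became 3 without low Y-linked libraries. With each library left out the counts ran from 0 to 9 (LV 4 h), 0 to 12 (LV 8 h), 2 to 16 (RV 4 h) and 14 to 21 (RV 8 h). In the LV at 4 h no gene was called without LV 0 h replicate 2 or 3 or any LV 4 h replicate, 1 without LV 8 h replicate 1 or 2, 5 without LV 0 h replicate 1 and 9 without LV 8 h replicate 3. In the LV at 8 h the count was 0 without LV 0 h replicate 2 or 3, 2 without LV 8 h replicate 3 and 12 without LV 8 h replicate 2. In the RV at 4 h it was 2 to 6 without RV 0 h replicate 2 or 3 or RV 4 h replicate 1 or 2, and 16 without RV 8 h replicate 3.

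At 8 h alone (3 against 3, no p below 0.1 possible), the share difference was -1.92 points for Cirbp-202 (LV), 1.05 for Cirbp-205 (RV) and -1.79 for Rbm3-202 (RV). From estimated counts the last was -0.057. With each library left out, shares of Cirbp-202 ran from -1.80 to 3.21 (LV) and -2.33 to 0.96 (RV), Cirbp-205 from -3.36 to 1.08 (RV) and Rbm3-202 from -2.27 to 1.91 points (RV). Cirbp-204 in the RV at 8 h was -1.80 with the replicate block.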
